A study of Rattus norvegicus with 6 samples.

Results

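The 8 genes described here encode the ATP-binding cassette (ABC) pumps that export drugs and their conjugates from cells: the P-glycoproteins Abcb1a and Abcb1b, the multidrug resistance proteins Abcc1, Abcc2, Abcc3, Abcc4 and Abcc6, and the half-transporter Abcg2, also called the breast cancer resistance protein. The rule lists them by role and sets no threshold on their values, and each was read on the probe whose RefSeq accession maps to its symbol, taking the probe of highest mean signal where a gene had several. All 8 had a probe, 19 probes in all, and all 8 described probes were well above background on all 6 arrays. They are 8 of 31193 transcripts tested in the series.

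The samples were renal cortex of male Sprague-Dawley (Crl:CD(SD)) rats, bought at an age of 5 weeks. In the treated group 3 rats received carbon tetrachloride at 100 mg/kg/day for 4 weeks, and in the control group 3 rats received corn oil for 4 weeks. Carbon tetrachloride is a solvent and liver toxicant, made reactive by cytochrome P450 enzymes. Benzyl acetate stands in the series' design text, but the title, labels and treatment protocol give carbon tetrachloride, which is followed here. Each rat gave 1 single-colour Agilent array of Cy3-labelled RNA, and precision is limited by the number of arrays.

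ABC pumps use ATP to move their substrates out across a membrane against a gradient. In the kidney, P-glycoprotein, Abcc2, Abcc4 and Abcg2 lie in the brush border of the proximal tubule, where they pass drugs, urate and glutathione or glucuronide conjugates into urine, while Abcc1, Abcc3 and Abcc6 lie in basolateral membranes and face the blood. Together with uptake carriers on the blood side they set how much of a toxicant or its metabolites stays in a tubule cell. Arrays measure RNA only, and fewer cells of a type and less RNA per cell cannot be told apart in a piece of cortex.

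No pump gene passed the test between carbon tetrachloride and corn oil. Of the 8 genes, 0 passed an adjusted p of 0.05 in limma (Benjamini-Hochberg over all tested transcripts), where 0.00321% of all transcripts did, and 0 had an unadjusted p under 0.05, where 6.27% did. The fitted change was above 0 for 5 of the genes and below 0 for 3, where it was above 0 for 52.2% of all transcripts. The median log2 change of the 8 genes was 0.070, beside 0.0073 over all tested transcripts. This median was 0.019 without carbon tetrachloride replicate 1, 0.030 without corn oil replicate 2, 0.048 without corn oil replicate 3 and 0.12 without corn oil replicate 1. Every 95% confidence interval lay within a 2-fold change either way, and the widest reached from -0.67 to 0.50 (Abcb1a). Levels below are log2 of the processed signal relative to the 75th percentile of the same array, and differences are carbon tetrachloride minus corn oil on the log2 scale, with n = 3 rats per group. Levels of different probes are not compared, because probes differ in how brightly they bind.

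**Figure D1:**
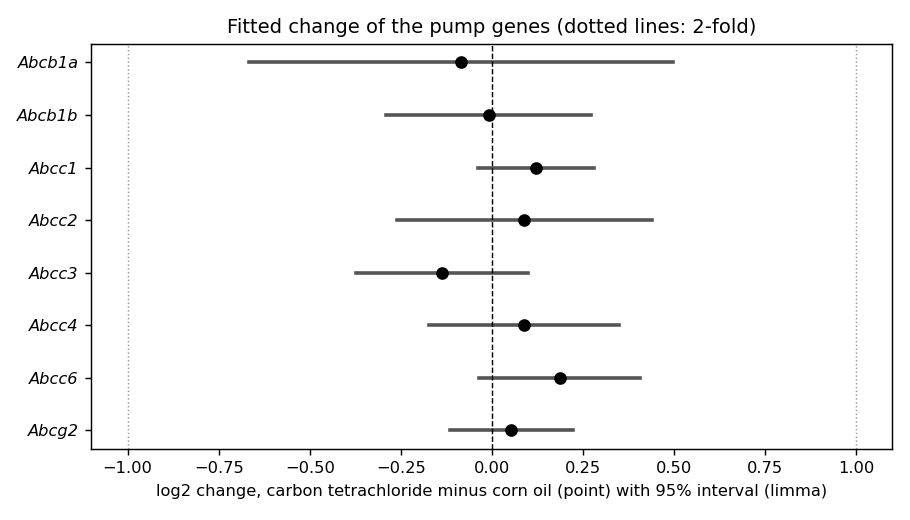
Fitted log2 change of the 8 pump genes (vertical axis), carbon tetrachloride minus corn oil (horizontal axis), with points for the limma estimate and bars for the 95% confidence interval over 3 rats per group. Every bar crosses 0 and stays inside the dotted lines at a 2-fold change.

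The P-glycoproteins export bulky hydrophobic drugs. Where humans have the single gene ABCB1 for this task, the rat has a pair of paralogous genes, which lie next to each other among protein-coding genes on chromosome 4, after Abcb4, the phospholipid exporter of bile. Their promoters are shown because the results below set the pair against each other. The RefSeq sequences run from 250 bases before to 50 bases after the gene start in the assembly GRCr8, at chr4:26397599-26397898 on the minus strand for Abcb1a and at chr4:26279980-26280279 on the minus strand for Abcb1b. Capitals mark matches on either strand to the GC box (GGGCGG) and the CCAAT box (CCAAT).
Abcb1a: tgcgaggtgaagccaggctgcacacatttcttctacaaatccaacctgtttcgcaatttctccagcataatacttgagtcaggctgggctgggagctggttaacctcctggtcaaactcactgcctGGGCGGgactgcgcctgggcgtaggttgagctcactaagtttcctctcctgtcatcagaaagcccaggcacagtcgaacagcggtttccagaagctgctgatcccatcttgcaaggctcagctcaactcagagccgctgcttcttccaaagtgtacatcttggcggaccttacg
Abcb1b: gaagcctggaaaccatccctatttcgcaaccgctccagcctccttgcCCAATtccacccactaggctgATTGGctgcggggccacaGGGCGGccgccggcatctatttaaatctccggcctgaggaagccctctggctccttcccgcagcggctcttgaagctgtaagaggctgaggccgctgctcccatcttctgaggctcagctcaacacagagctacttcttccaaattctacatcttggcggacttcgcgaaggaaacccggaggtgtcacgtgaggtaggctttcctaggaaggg
Each promoter held 1 GC box, and the Abcb1b promoter also held 2 CCAAT boxes, of which the Abcb1a promoter held 0. Whether probes of one paralog also bind RNA of the other was not tested, so their separate values are uncertain. Neither promoter held the TATA box (TATAAA) or the core of the antioxidant response element (TGACNNNGC), the site of the oxidative stress factor NRF2.

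Abcb1a, the form known for the blood-brain barrier and gut, read -4.63, -4.76 and -4.90 on the carbon tetrachloride arrays and -4.29, -5.20 and -4.54 on the corn oil arrays. The corn oil arrays held both the highest and the lowest value, so the groups overlapped fully. This gave a log2 change of -0.09 ± 0.24 (SE), with an adjusted p of 0.959 in limma. Its probe was dim, though well above background on all 6 arrays. It was the most variable of the 8, with a within-group SD of 0.34 that exceeded the SD of 86.3% of all tested transcripts. The spread was smaller under another background setting. With normexp correction and an offset of 50, an alternative listed below, the SE was 0.096 (75th percentile scaling) and 0.085 (quantile normalization). An offset added before the log2 step narrows the spread of dim probes, so correction and offset cannot be told apart here. Whether Abcb1a RNA itself varied between rats was not tested.

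Abcb1b, the form known from rodent adrenal and uterus and as inducible in liver, read -0.56, -0.93 and -0.66 after carbon tetrachloride and -0.61, -0.79 and -0.72 after corn oil. The treated arrays spanned the control arrays. Its log2 change was -0.0086 ± 0.11 (SE; limma, adjusted p = 0.994), and its interval from -0.29 to 0.27 corresponds to a ratio between 0.818 and 1.21. The other 2 probes of Abcb1b had changes of 0.13 and 0.18, also with overlapping groups.

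The contrast of the paralogs asks whether their balance moved. The within-array difference, Abcb1b minus Abcb1a, was 4.07, 3.83 and 4.24 after carbon tetrachloride and 3.68, 4.40 and 3.82 after corn oil, with means of 4.04 ± 0.21 and 3.97 ± 0.39 (SD, n = 3). Only its shift between groups has a meaning, since the probes bind differently. The shift was 0.077 (exact permutation test, two-sided, p = 0.8, where 3 against 3 allows no p below 0.1). Within slide 1, the slide with rats of both groups, it was -0.019. The next gene of the cluster, Abcb4, had a log2 change of 0.18 ± 0.45 (SE; limma, adjusted p = 0.956).

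**Figure D2:**
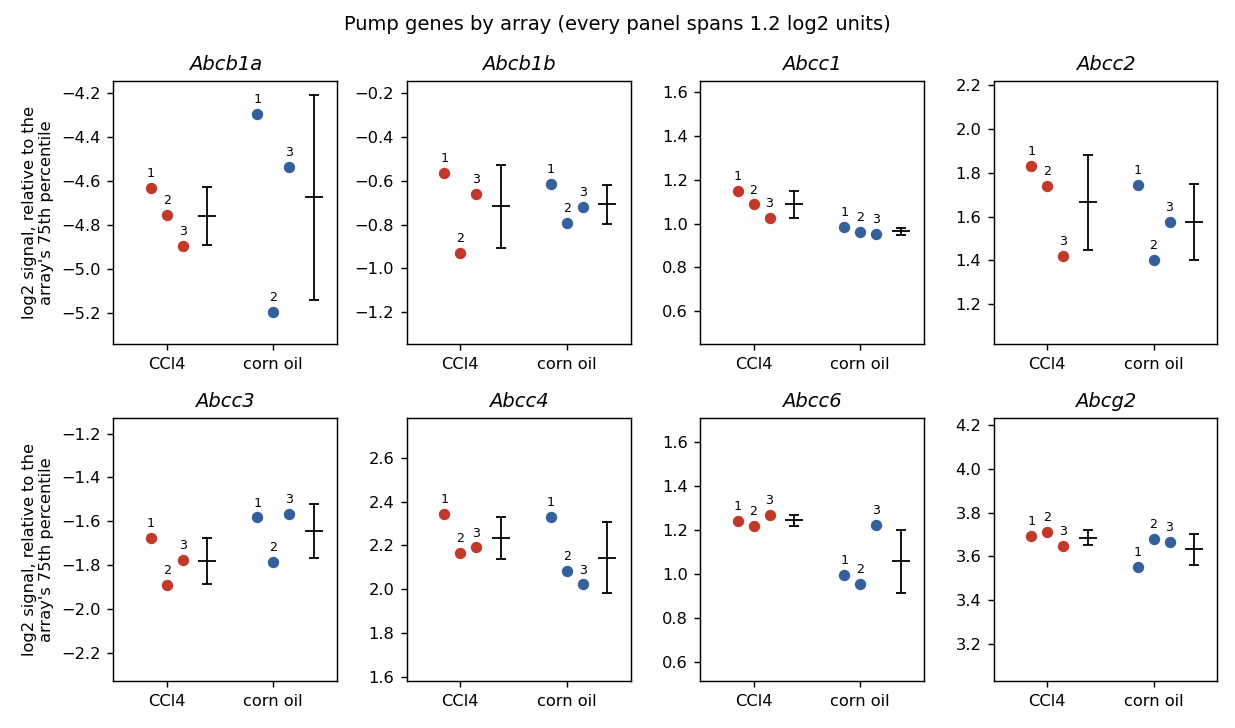
Level of each pump gene on each array (vertical axis, log2 signal relative to the array's 75th percentile; every panel spans the same distance), for carbon tetrachloride (left, red) and corn oil (right, blue), with replicate numbers at the points and the mean ± SD of 3 arrays as black bars. Only in the Abcc1 panel do all treated points lie above all control points, and the Abcb1a control points are the most spread.

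Abcc1 exports glutathione conjugates and leukotriene C4 and is known as a widely expressed basolateral pump. It was the 1 pump gene whose groups did not overlap. Its levels were 1.15, 1.09 and 1.03 on the carbon tetrachloride arrays and 0.98, 0.96 and 0.95 on the corn oil arrays, and so the lowest treated rat lay above the highest control rat. This amounted to a log2 change of 0.12 ± 0.06 (SE; limma, adjusted p = 0.820), a ratio of 1.09 with an interval from 0.974 to 1.21. Groups did not overlap for 12.8% of all tested transcripts, and 1 of 8 pump genes lies close to that share. Its within-group SD of 0.044 was smaller than that of all but 5.17% of transcripts.

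Of the 4 probes of Abcc1, 3 were well above background on all 6 arrays, with log2 changes from 0.11 to 0.17. The second of these in brightness read 0.80, 0.76 and 0.68 after carbon tetrachloride and 0.57, 0.59 and 0.58 after corn oil, a change of 0.17 ± 0.07 (SE; limma over probes, adjusted p = 0.778). The groups were apart on that probe and on the described one. They overlapped slightly on another, which read 0.56, 0.49 and 0.39 in treated rats and 0.37, 0.40 and 0.37 in control rats. The dimmest probe was well above background on 3 treated but only 2 control arrays, so it was tested only through the group in which it read higher. Its change of 0.56 ± 0.24 (SE) is therefore given as a value only. The probes read the same RNA samples and are no replicates of one another.

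The Abcc1 promoter, at chr10:1162318-1162617 on the minus strand of GRCr8, is shown because it is the richest in GC boxes among the pumps, with 5 matches, some of which share bases. Capitals again mark GC boxes on either strand.
Abcc1: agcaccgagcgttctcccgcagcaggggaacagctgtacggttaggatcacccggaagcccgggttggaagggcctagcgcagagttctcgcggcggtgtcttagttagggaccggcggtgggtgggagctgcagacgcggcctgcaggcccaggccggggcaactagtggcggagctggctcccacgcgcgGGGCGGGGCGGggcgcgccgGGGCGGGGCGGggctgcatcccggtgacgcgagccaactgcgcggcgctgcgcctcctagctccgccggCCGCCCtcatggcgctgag
Of the 8 genes, 7 had a promoter in the RefSeq table, and all 7 held a GC box, which 33.1% of all promoters of that length do. A CCAAT box was found in 3 of the 7 (37.5% of all promoters), the antioxidant response element core in 1, that of Abcc2 (12.1%), and a TATA box in 0 (14.2%). The GC content was 73.7% for Abcc1, 75.3% for Abcc4 and 68% for Abcg2, beside 53.7% for Abcb1a, 58.3% for Abcb1b, 57% for Abcc6 and 44.7% for Abcc2, with a median of 51.7% over all promoters. Letters that match a motif describe the window and do not show binding.

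Abcc2, the brush border pump for conjugates whose loss causes jaundice in a mutant rat strain, read 1.83, 1.74 and 1.42 after carbon tetrachloride and 1.75, 1.40 and 1.58 after corn oil. Both groups held values near the top and near the bottom of this range. The log2 change was 0.09 ± 0.14 (SE; limma, adjusted p = 0.918), and the lowest treated value was that of replicate 3, the only array of the second slide. On the first slide the change was 0.21 ± 0.12 (SE; limma, adjusted p = 0.758).

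Abcc4, which exports urate, cyclic nucleotides and organic anions into urine, read 2.34, 2.17 and 2.19 in treated rats and 2.33, 2.08 and 2.02 in control rats. Corn oil replicate 1 lay just under the highest treated array, and the log2 change was 0.09 ± 0.11 (SE; limma, adjusted p = 0.891). Its 4 probes ran from -0.022 to 0.20, and on 1 of them, at 0.18, the groups did not overlap.

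Abcg2 exports urate, sulfated conjugates and many drugs. It was among the steadiest probes, with levels of 3.70, 3.71 and 3.65 in treated rats and 3.55, 3.68 and 3.67 in control rats. The spread within groups (SD 0.055) was smaller than that of all but 9.61% of transcripts. The log2 change was 0.05 ± 0.07 (SE; limma, adjusted p = 0.898), and its second probe gave 0.07. The interval for Abcg2 excludes ratios below 0.923 and above 1.17.

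Abcc3 is a basolateral exporter of glucuronides and bile acids that is known to rise in liver when bile flow is blocked. It had the lowest of the 8 estimates, with levels of -1.68, -1.89 and -1.78 after carbon tetrachloride and -1.58, -1.78 and -1.57 after corn oil. The treated rats were mostly below the control rats, with overlap at 1 control array. The fitted log2 change was -0.14 ± 0.10 (SE; limma, adjusted p = 0.836). Its 3 probes differed in direction, from -0.18 to 0.08.

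Abcc6, a basolateral pump needed for ATP release from cells and for control of calcification, had the highest estimate and the smallest unadjusted p of the 8. Its single probe read 1.24, 1.22 and 1.27 in treated rats and 1.00, 0.96 and 1.22 in control rats. The treated values lay close together, and corn oil replicate 3 reached the lowest of them. The log2 change was 0.19 ± 0.09 (SE; limma, adjusted p = 0.798), a ratio of 1.14 with an interval from 0.976 to 1.33.

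**Figure D3:**
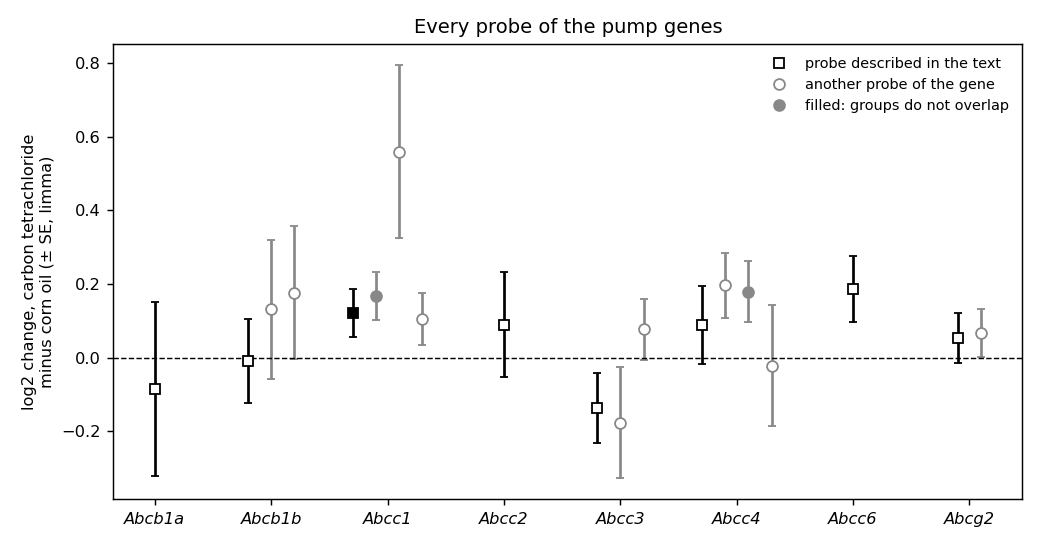
Log2 change ± SE (vertical axis, carbon tetrachloride minus corn oil, limma over all probes) for each of the 19 probes of the 8 pump genes (horizontal axis), with squares for the probes described, circles for other probes of the gene and filled symbols where the groups did not overlap. The Abcc1 probes lie above 0, the highest of them being well above background on only 2 of the 3 control arrays, and the probes of Abcb1b, Abcc3 and Abcc4 fall on both sides of it.

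Without the dimmest Abcc1 probe, 18 probes remained, all well above background on all 6 arrays. Of these 13 had a change above 0 (52.8% of all tested probes) and 5 below, and 3 had groups that did not overlap (12.9% of all tested probes). Of these 3 probes 2 belong to Abcc1 and 1 to Abcc4. The lowest adjusted p of any pump probe was 0.778 (limma over probes), and 0 passed 0.05, where 0.00236% of all tested probes did.

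The profile of the 6 arrays, centred on its mean, was compared with those of 12334 other tested genes that carry a symbol. For Abcc6 the smallest root mean square differences were those of Stk11ip (0.0090), Irak1 (0.018) and Slc25a39 (0.027). For Abcb1a, the pump with the widest range, they were those of Spmip4 (0.070), Insyn2a (0.080) and Qprt (0.10). With 6 arrays and so many genes some profiles lie close together, and these values are a description only.

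The rest of the ABC family was described from a list of 46 genes, of which 36 had a probe and 29 were tested. Limma called 0 of the 29 at an adjusted p of 0.05, and 4 had an unadjusted p under 0.05 (6.27% of all transcripts), all with a higher value after carbon tetrachloride. The list held 14 changes above 0 and 15 below, with a median of -0.02 and a range from -0.40 to 1.19. Groups did not overlap for 6 of the 29, where they did not for 12.8% of all transcripts in either direction. All 6 were higher after carbon tetrachloride, the direction of 7.51% of all transcripts. The pumps ran from -0.14 to 0.19, all within the 5th to 95th percentile of all transcripts (-0.36 to 0.32).

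The smallest p in this list was that of Abcg1, a cholesterol exporter of macrophages and other cells. Abcg1 read 1.15, 1.17 and 1.35 after carbon tetrachloride and 0.71, 0.77 and 0.39 after corn oil, a change of 0.60 ± 0.12 (SE; limma, adjusted p = 0.687). Abca1, which loads cholesterol onto apolipoprotein A-I, read -2.08, -1.62 and -2.19 in treated rats and -2.47, -3.18 and -2.88 in control rats, a change of 0.88 ± 0.23 (SE; limma, adjusted p = 0.754). For both genes the lowest treated rat lay above the highest control rat, and neither passed the threshold. The largest estimate was that of Abcb11, the bile salt export pump of liver, at 1.19 ± 0.35 (SE; limma, adjusted p = 0.765). It was dim but well above background on all 6 arrays, at -4.31, -3.59 and -3.25 in treated rats and -5.34, -5.02 and -4.38 in control rats.

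**Figure D4:**
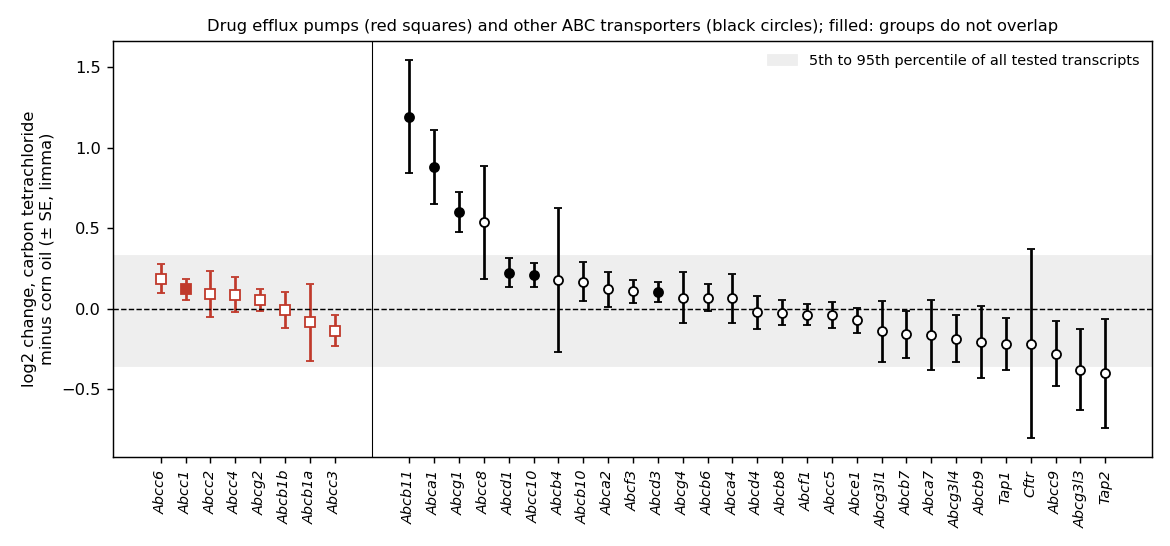
Log2 change ± SE (vertical axis, carbon tetrachloride minus corn oil, limma) of the 8 drug efflux pumps (red squares, left) and 29 other tested ABC transporters (black circles, right), each sorted from high to low, with filled symbols where the groups did not overlap and the 5th to 95th percentile of all tested transcripts in grey. The pumps stay inside the grey band, while Abcb11, Abca1, Abcg1 and Abcc8 lie above it and Tap2 and Abcg3l3 below it, the groups of the last 3 overlapping.

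Genes known to control efflux pump transcription were tested next, among them the xenobiotic receptor gene Nr1i2 and the NRF2 gene Nfe2l2. All 20 were tested, 0 passed an adjusted p of 0.05 in limma, 2 had an unadjusted p under 0.05 (6.27% of all transcripts), and the median was 0.044. Those 2 were Rxra and Rxrb, the partners of many nuclear receptors, with changes of 0.25 ± 0.08 and 0.17 ± 0.07 (SE; limma, adjusted p = 0.770 and 0.791). For scaffolds and linkers that hold proteins at the brush border all 10 genes were tested, 0 passed, 0 had an unadjusted p under 0.05, and the changes ran from -0.06 to 0.12 with a median of 0.0020. The smallest p among them were those of the PDZ scaffold genes Nherf2 (0.12 ± 0.10, SE) and Nherf1 (0.08 ± 0.09, SE).

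Carriers that bring organic anions and cations into or out of tubule cells complete the pathway. Of 20 genes 18 were tested, 0 passed and 0 had an unadjusted p under 0.05 in limma, with 11 changes above 0, 7 below and a median of 0.09. The smallest p were those of Slco1a4, an uptake carrier, at -0.31 ± 0.17 (SE), and Slc51a, a subunit of the bile acid and steroid exporter, at -0.54 ± 0.31 (SE). Their adjusted p in limma were 0.824 and 0.826.

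The proximal tubule makes up most of the renal cortex, and all 8 of its markers were well above background on every array. Summed signals are the log2 of a sum on the linear scale, so the brightest probes dominate them. Summed proximal tubule signal ran from 10.2 to 10.3 in treated rats and from 10.1 to 10.3 in control rats, and 0 of 8 markers passed the threshold in limma. Of 8 endothelial markers 7 were higher (median 0.12), where 52.2% of all transcripts were. Groups did not overlap for 2 of them, Nos3 (0.40 ± 0.07) and Tek (0.23 ± 0.08, SE; limma, adjusted p = 0.687 and 0.770). The endothelial sum ran from 4.91 to 5.05 in treated rats and from 4.80 to 5.07 in control rats. Of 7 leukocyte markers 5 were well above background on all 6 arrays. All 5 were lower, from -0.98 to -0.0056 (median -0.27), where 52.2% of all transcripts had a change above 0. Cd8b was the lowest of these, at -0.98 ± 0.09 (SE; limma, adjusted p = 0.187), and its groups did not overlap. Its 2 probes were both lower, at -0.98 and -0.51. The other 2 leukocyte markers had entered through 1 group only, Cd3e through corn oil (-1.11) and Itgam through carbon tetrachloride (1.05). Over the 7 genes the summed signal ran from 4.87 to 5.31 in treated rats and from 5.31 to 5.58 in control rats. This sum mostly follows 1 bright probe, that of Cd74. Cd74 read 4.96, 4.68 and 5.19 in treated rats and 5.44, 5.14 and 5.47 in control rats, with overlapping groups. Of 5 fibroblast markers 4 were lower (median -0.30, summed signal 4.32 to 4.92 in treated and 4.69 to 5.18 in control rats), and the median was -0.036 without carbon tetrachloride replicate 1. Markers of the loop, distal tubule and collecting duct had a median of -0.02 over 8 genes and those of podocytes 0.06 over 5. For liver and adrenal only 2 of 5 markers each were tested, and Alb and Star were not among them because they were not well above background. The liver pair moved in opposite directions, Apoa1 by 0.80 and Fgb by -0.14. Their midpoint of 0.33 was 0.099 and 0.086 under the normexp settings, whose offset narrows changes of dim probes such as that of Apoa1. The adrenal pair also moved in opposite directions, Hsd3b1 by 0.26 and Cyp11a1 by -0.23, with a midpoint of 0.016. Limma called 0 of the 45 tested entries on these marker lists at an adjusted p of 0.05, and 7 had an unadjusted p under 0.05, a share of 15.6% beside 6.27% of all transcripts, with Cd3e among the 7. Their part in the pump values was not tested.

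Slide 1, read in scan 1, held carbon tetrachloride replicates 1 and 2 and all 3 corn oil arrays, with the groups in different array rows, so row and group cannot be told apart there. Replicate 3 of carbon tetrachloride was the only array of slide 2 and of scan 2. Within slide 1 the log2 changes were -0.018 for Abcb1a, -0.037 for Abcb1b, 0.15 for Abcc1, 0.11 for Abcc4, -0.14 for Abcc3, 0.17 for Abcc6 and 0.07 for Abcg2, with the lowest adjusted p of the 8 genes at 0.734 (limma). Between 68.5% (corn oil replicate 2) and 72.1% of probes were well above background per array.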

How the data were processed

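Renal cortex RNA of 6 rats, grouped by the treatment label, was measured on single-colour Agilent arrays. The deposited scanner files hold spot intensity from Agilent Feature Extraction 10.7.1.1, per the file headers (10.7 per the submitters' processing notes). The authors' value table holds the same intensity on a linear scale, divided by a factor between 1015 and 1092 close to the array's 75th percentile (medians of 0.116, 0.115 and 0.111 for carbon tetrachloride, 0.118, 0.111 and 0.114 for corn oil), so its scale, centring and direction are known.

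The processed signal was scaled to the 75th percentile of each array and put on the log2 scale, without the 1439 control spots and spots flagged as outliers. Of 61537 probes, 42400 were tested because every array of carbon tetrachloride, of corn oil or of both showed them well above background. Names came from accessions matched, without version, to RefSeq genes of GRCr8 (45.8% of probes), and no array coordinates are given because the builds differ. The brightest probe stood for a gene (31193 transcripts). Limma 3.58.1 in R 4.3.3 was run over all of them (two-sided, Benjamini-Hochberg) and tested on simulated data. Per the series' design text the rats are biological replicates.

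The members and lists were chosen with earlier results of these data known. Named genes are all members, the 2 of smallest p of each pathway list and of some marker lists, and the 3 closest profiles for 2 members. Abcb11, Abcb4, Nr1i2, Nfe2l2, Itgam, Cd74, Alb and Star were named outside this rule. Alternatives were other background corrections, scalings, filters, probe rules and variance models. Further ones were the deposited table, replicate or slide blocks, slide 1 alone and the fit without each array. Background correction there was normexp with an offset of 50 on median signals, where the plan assumed mean ones.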

Additional observations from a re-analysis of the deposited data

How the results depend on the processing

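Under each of the 19 alternatives the limma count of pump genes (or probes, where each was tested alone) past the threshold was 0. Carbon tetrachloride replicate 3 is the only array of slide 2, so the slide block, slide 1 alone and the fit without that array are the same fit, which leaves 17 distinct alternatives. The lowest adjusted p of a pump gene was 0.600, for Abcc6 without corn oil replicate 3. In 6 of the 8 genes the direction was kept in each alternative, but some values came close to 0. No filter, the filter on all 6 arrays and each probe tested alone left the 8 estimates unchanged. So did trend with robust fitting and the replicate block, and the direction could not turn under these settings. Without single arrays Abcc2 ran from 0.0033 (without corn oil replicate 2) to 0.21 (without carbon tetrachloride replicate 3), Abcc4 from 0.027 (without corn oil replicate 3) to 0.18 and Abcg2 from 0.013 to 0.077, the end values 0.18 and 0.013 both without corn oil replicate 1. Abcb1b turned to 0.0056 with normexp and 75th percentile scaling, 0.0072 with normexp and quantile normalization and 0.099 with the mean of its probes, and without single arrays it ran from -0.085 to 0.097. Without single arrays Abcb1a ran from -0.35 (without corn oil replicate 2, its lowest array) to 0.11 (without corn oil replicate 1), the only value above 0. The shift of Abcb1b minus Abcb1a was -0.019 on slide 1 and ran from -0.067 to 0.30 without single arrays, in each case with an exact permutation p of at least 0.2. The 1 transcript past the threshold in the whole series, no pump gene, was lost (count 0) under both normexp settings, the filter on all 6 arrays, no filter, the replicate block, the slide block, slide 1 only, and trend with robust fitting. Leaving out 1 array gave counts from 0 to 2. The causes were not tested. Over the distinct fits, 195 of 221 list medians stayed within the spread between control arrays and 26 moved further. The settings that left the 8 estimates unchanged also left every list median unchanged, so this count is no measure of stability. Same-numbered arrays did not deviate together (correlations of -0.023, -0.097 and -0.079, and 0 of 3 arrays in either group correlated best with its own number). The number thus showed no sign of a pairing, which 3 arrays per group cannot exclude. With the replicate block 0 pump genes passed. The number of arrays sets the depth: the smallest SE of a pump gene's log2 change was 0.065, for Abcc1.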
